A study of Caenorhabditis elegans with 12 samples.

Results

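The genes described here encode the subunits of the proteasome of Caenorhabditis elegans. Members were taken by name: every gene of the deposited table whose annotated name is pas, pbs, rpt or rpn followed by a number. This gave 33 of 46926 genes, 14 of the core particle (7 pas genes for the alpha rings and 7 pbs genes for the beta rings) and 19 of the regulatory particle (6 rpt genes for the ATPases of the base and 13 rpn genes for the other subunits). All 33 passed the filter on low counts, so none is missing from the counts below.

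RNA of whole N2 hermaphrodites was sequenced in 3 groups of 4 libraries: worms given bromhexine at 100 µM, worms given genipin at 200 µM, and worms given the solvent DMSO alone. Genipin, a compound of gardenia fruit, crosslinks proteins, and bromhexine is used as a drug that thins mucus. Worms of every group were placed on the plates as synchronized young adults and collected 48 h later, on E. coli OP50-1 with streptomycin, and FUDR, which blocks DNA synthesis and so the growth of progeny, was in the medium of every group. The labels give 1 batch for all 12 libraries and do not state whether replicates came from separate cultures. Each p below sets a difference between groups against the spread among these samples only, and that spread may therefore be technical.

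The proteasome is the protease that degrades proteins tagged with ubiquitin. Its core particle is a barrel of stacked rings, in which the outer alpha rings control entry and the inner beta rings hold the cutting sites. The regulatory particle caps the barrel, binds and removes ubiquitin, and unfolds the substrate with its ring of ATPases. When proteasome activity falls short in C. elegans, a form of the transcription factor SKN-1 called SKN-1A is known to raise the subunit genes together.

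Library totals ran from 20.3 to 28.1 M counts. Levels are given as CPM, or counts per 1 M of the TMM-scaled library, and per kb of exon where genes are compared with each other. The TMM factors differed by group, with 0.938 to 0.958 in bromhexine, 0.984 to 1.05 in genipin and 1.02 to 1.05 in DMSO, and the scaling bears on the results below. Genipin replicate 1 stood apart in the cytochrome P450 gene cyp-35B2, at 29.7 CPM beside 1.48 to 4.2 CPM in the other genipin libraries, 781 to 898 CPM in bromhexine and 0.279 to 0.775 CPM in DMSO.

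The members lie on 5 chromosomes of WBcel235, with 10 on chromosome I, 7 on II, 8 on III, 3 on IV and 5 on V. Chromosome I holds 7 of the 14 core genes. In 10 members the exons overlap those of another protein-coding gene, in 9 of them on the opposite strand. The strand setting of the counting is not given in the sources used here, so reads in those stretches cannot be assigned with certainty. The longest overlap is that of rpn-7 (IV, start 9316631, end 9318632), whose exons share 394 bases with nemt-1. Decimals, which mark reads divided between genes, occurred in 9 of the 396 member values, and those 9 all belonged to rpn-7. Next come rpt-4 with 103 bases shared with rpoa-49, pbs-4 with 73 bases shared with mrrf-1 and pbs-7 with 70 bases shared with K07A12.5 on its own strand. Another protein-coding gene on the same strand ends 22 bases before pbs-3, 54 bases before rpn-6.2, 106 bases before pas-1, 110 bases before pbs-5 and 118 bases before rpn-10.

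Within a group most subunit transcripts stood at similar levels per kb of exon. The median member had 175 CPM per kb in bromhexine, 148 CPM per kb in genipin and 154 CPM per kb in DMSO. Core genes stood higher than regulatory genes. The core median was 190 CPM per kb in bromhexine, 155 CPM per kb in genipin and 156 CPM per kb in DMSO, and the regulatory median was 157 CPM per kb in bromhexine, 132 CPM per kb in genipin and 134 CPM per kb in DMSO.

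In DMSO the order was led by pbs-1, which carries the caspase-like cutting site, at 267 ± 14 CPM per kb (SD, n = 4), followed by the alpha ring genes pas-3 at 259 ± 19.2 and pas-5 at 244 ± 11.5 CPM per kb and the beta ring gene pbs-7 at 218 ± 21 CPM per kb. Below these the order ran pas-2, rpt-2, rpn-8, rpn-9, pbs-3, rpn-3, rpn-11, pbs-2, rpt-1, pas-4, pas-6, pas-7, pbs-6, rpn-7, rpt-5, pas-1, rpn-5, pbs-5, rpt-4, rpt-3, pbs-4, rpn-13, rpt-6, rpn-10, rpn-12, rpn-2, rpn-6.1, rpn-1 and rpn-6.2. Few neighbours in this order were separated: in 3 of the 32 adjacent pairs the gap in CPM per kb was larger than the summed SD of both genes. These pairs were pbs-7 over pas-2, rpn-10 over rpn-12, and rpn-1 over rpn-6.2. By the same measure 7 pairs were separated in bromhexine and 3 in genipin.

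One member stood far below the rest in every group. The gene rpn-6.2 (III, start 8999817, end 9001999), a second gene for the lid subunit Rpn6, had 12.6 ± 0.738 CPM per kb in DMSO, while the next lowest, rpn-1, had 102 ± 8.69 CPM per kb. Between the highest and the lowest member the ratio in CPM per kb was 19.1 in bromhexine, 20.2 in genipin and 21.2 in DMSO, and without rpn-6.2 it was 2.93 in bromhexine, 2.56 in genipin and 2.62 in DMSO. Its paralog rpn-6.1 (III, start 6959110, end 6962001) stood above it per kb by a factor of 6.52 in bromhexine, 8.07 in genipin and 8.37 in DMSO.

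**Figure D1:**
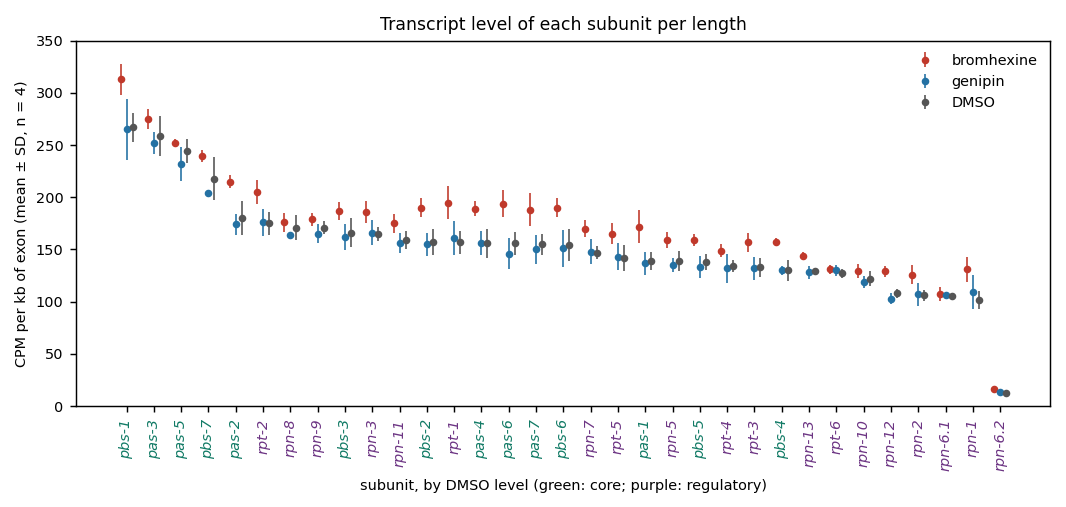
Level of each of the 33 members in CPM per kb of exon (vertical axis), for bromhexine, genipin and DMSO, as the mean of 4 libraries with the SD as bar, ordered by the DMSO level. Most members lie within a narrow band, with pbs-1 highest at 267 CPM per kb in DMSO and rpn-6.2 far below the others at 12.6 CPM per kb.

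The first question was whether subunit transcripts differ between worms given bromhexine for 48 h and worms given DMSO. Subunits of both particles were slightly higher with bromhexine. Of the 33 members 22 rose and 0 fell at an adjusted p under 0.05 (edgeR, Benjamini-Hochberg over all 13695 genes tested, n = 4 libraries per group). Of all genes tested 19% were called higher and 21.8% lower. The log2 fold change was positive in each of the 33 members, from 0.02 to 0.38 with standard errors of 0.05 to 0.11, and its median was 0.22, or 16.2% higher, beside 0.00 over all genes tested. In 20 members every bromhexine library lay above every DMSO library, as in 16.2% of all genes, and in 0 members all lay below, as in 19.7% of all genes. Whole worms were sequenced, so more RNA per cell and more cells of a type that is rich in these transcripts cannot be told apart.

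The call depended on how libraries were scaled. With library totals in place of TMM, an alternative chosen after seeing the data, 1 member (pas-6) was called higher and 0 lower, the median of the members was 0.08, and 7 members were negative. That scaling shifted all genes of the contrast alike and put the median of all genes at -0.13, so the distance of the members from that median is fixed by construction and is no test of the rise. The whole table then gave 1142 genes higher and 4293 lower, against 2602 higher and 2979 lower with TMM. With upper quartile scaling 18 members were called higher and 0 lower, and 3 were negative, while the whole table gave 2034 genes higher and 3371 lower with a median of -0.04. As a plain share of all counts, the 33 members together took 0.638% to 0.709% of a bromhexine library, 0.605% to 0.660% of a genipin library and 0.614% to 0.699% of a DMSO library, so these ranges overlap. Leaving out DMSO replicate 3 brought the count of members called higher to 12, and leaving out bromhexine replicate 1 brought it to 14. Calls dropped over the whole table as well, to 1856 genes higher without DMSO replicate 3 and 1929 without bromhexine replicate 1, against 2602 with all libraries.

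**Figure D2:**
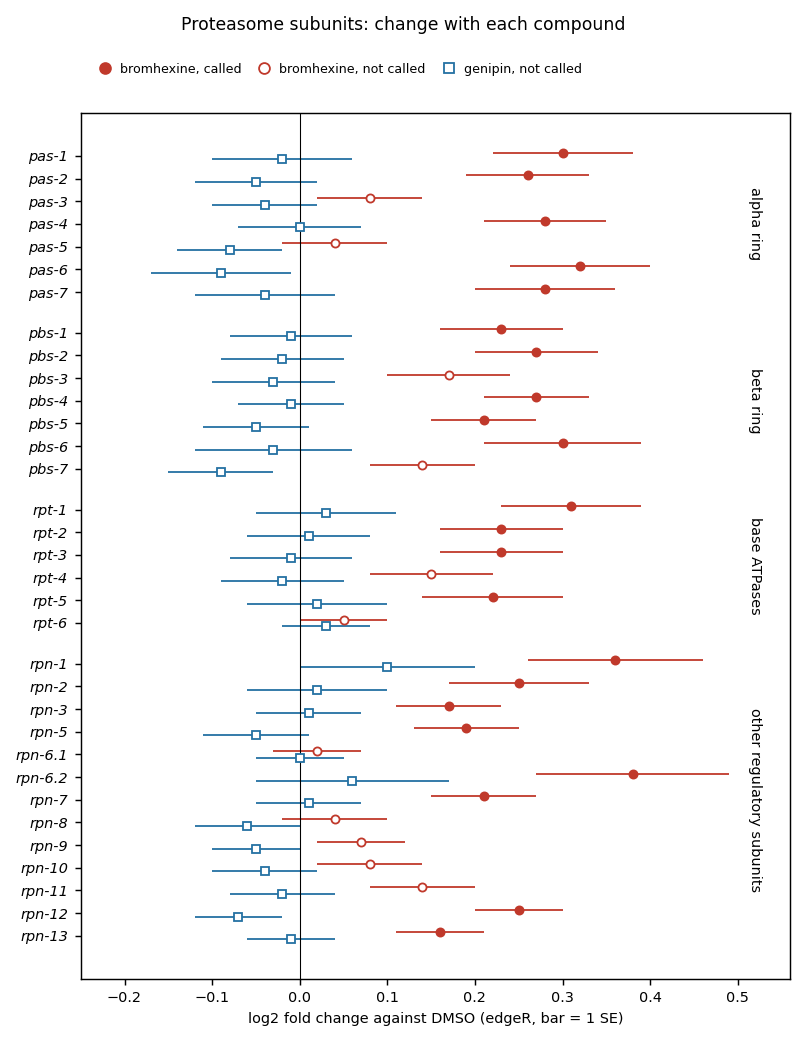
Log2 fold change with its standard error for each of the 33 members, grouped into alpha ring, beta ring, base ATPases and other regulatory subunits, for bromhexine against DMSO (circles) and genipin against DMSO (squares) by edgeR with TMM scaling. Filled circles were called at an adjusted p under 0.05. All bromhexine circles lie above 0, where library totals would put 7 below it, and all genipin squares lie between -0.09 and 0.10.

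In the core particle 10 of 14 genes rose with bromhexine and 0 fell, beside 19% and 21.8% of all genes. The core genes had a median log2 fold change of 0.26 and a range of 0.04 to 0.32. The alpha ring, which gates the barrel, had 5 of 7 genes higher (median 0.28), and the beta ring, which holds the cutting sites, had 5 of 7 higher (median 0.23). With library totals the core median was 0.13, and pas-6 was the 1 core gene called, beside 1142 higher and 4293 lower of all 13695 genes.

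The alpha ring gene pas-6 had the largest difference of the core. Its levels were 198, 187, 206 and 177 CPM in the bromhexine replicates 1 to 4, 136, 161, 129 and 152 CPM in genipin, and 157, 167, 141 and 151 CPM in DMSO. All 4 bromhexine libraries lay above all 8 others, with a log2 fold change against DMSO of 0.32 ± 0.08 (adjusted p = 0.00475, edgeR). It was called under every alternative run, library totals included.

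Next was pas-1, another alpha ring gene, with 161, 159, 183 and 147 CPM in bromhexine, 126, 142, 118 and 133 CPM in genipin, and 133, 143, 124 and 128 CPM in DMSO. The bromhexine libraries again lay above all others, and the log2 fold change against DMSO was 0.30 ± 0.08 (adjusted p = 0.00546, edgeR). The alpha ring gene pas-5 had the smallest difference of the ring, with 217, 219, 211 and 216 CPM in bromhexine, 179, 205, 198 and 210 CPM in genipin, and 200, 223, 206 and 207 CPM in DMSO. Its bromhexine libraries lay within the DMSO range, at 0.04 ± 0.06 (adjusted p = 0.564, edgeR). Of the other alpha ring genes, pas-2 (0.26), pas-4 (0.28) and pas-7 (0.28) rose, and pas-3 (0.08, adjusted p = 0.279) was not called.

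In the beta ring the largest log2 fold changes were those of pbs-6 and pbs-2. The structural beta subunit gene pbs-6 had 167, 161, 178 and 161 CPM in bromhexine, 127, 147, 113 and 144 CPM in genipin, and 140, 147, 115 and 138 CPM in DMSO, a log2 fold change against DMSO of 0.30 ± 0.09 (adjusted p = 0.0119, edgeR). The gene pbs-2, which encodes the subunit with the trypsin-like cutting site, had 202, 180, 195 and 187 CPM in bromhexine, 149, 168, 145 and 162 CPM in genipin, and 163, 170, 141 and 158 CPM in DMSO, at 0.27 ± 0.07 on the log2 scale (adjusted p = 0.00563, edgeR). In both genes every bromhexine library exceeded every library of the other groups.

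The gene pbs-5 encodes the subunit with the chymotrypsin-like cutting site. It had 177, 166, 164 and 167 CPM in bromhexine, 129, 152, 133 and 149 CPM in genipin, and 139, 155, 139 and 151 CPM in DMSO. The bromhexine libraries lay above all others by a small margin, at 0.21 ± 0.06 against DMSO (adjusted p = 0.0164, edgeR). This call was lost without bromhexine replicate 1 (adjusted p = 0.0525), DMSO replicate 1 (0.0505) or DMSO replicate 3 (0.0542).

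The smallest log2 fold change of the ring was that of pbs-7, with 213, 210, 216 and 204 CPM in bromhexine, 179, 181, 175 and 182 CPM in genipin, and 183, 218, 176 and 188 CPM in DMSO. DMSO replicate 2 lay above the bromhexine libraries and the other DMSO libraries below them, and the difference was not called (0.14 ± 0.06, adjusted p = 0.0846, edgeR). Without DMSO replicate 2 it was called, at 0.21 (adjusted p = 0.00783). Of the other beta ring genes, pbs-1 (0.23) and pbs-4 (0.27, adjusted p = 0.00232, the smallest of the 33) rose, and pbs-3 (0.17, adjusted p = 0.0657) was not called.

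In the regulatory particle 12 of 19 genes rose with bromhexine and 0 fell, beside 19% and 21.8% of all genes. The regulatory genes had a median log2 fold change of 0.19 and a range of 0.02 to 0.38. Of the 6 ATPases, 4 rose (median 0.22), and of the 13 rpn genes, 8 rose (median 0.17). With library totals the regulatory median was 0.06 and 0 were called by edgeR, beside 1142 higher and 4293 lower of all 13695 genes.

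The largest difference among the ATPases was that of rpt-1, with 311, 289, 314 and 264 CPM in bromhexine, 243, 272, 212 and 244 CPM in genipin, and 241, 254, 214 and 241 CPM in DMSO. The bromhexine libraries lay above those of DMSO, while genipin replicate 2 exceeded bromhexine replicate 4, and the log2 fold change against DMSO was 0.31 ± 0.08 (adjusted p = 0.00753, edgeR). The ATPase gene rpt-3, whose promoter is used in C. elegans as a reporter of SKN-1A, had 217, 217, 221 and 194 CPM in bromhexine, 179, 191, 158 and 188 CPM in genipin, and 183, 197, 167 and 176 CPM in DMSO. Bromhexine replicate 4 lay below DMSO replicate 2, and the log2 fold change was 0.23 ± 0.07 (adjusted p = 0.0188, edgeR). That call was lost without bromhexine replicate 3 (adjusted p = 0.0547) or DMSO replicate 3 (0.0657).

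The ATPase gene with the smallest difference was rpt-6, with 193, 179, 185 and 182 CPM in bromhexine, 178, 176, 184 and 192 CPM in genipin, and 182, 185, 174 and 172 CPM in DMSO. The 3 groups overlapped, and the log2 fold change against DMSO was 0.05 ± 0.05 (adjusted p = 0.432, edgeR). Of the other ATPase genes, rpt-2 (0.23) and rpt-5 (0.22) rose. The gene rpt-4 (0.15, adjusted p = 0.0873) was not called, although its bromhexine libraries lay above its DMSO libraries.

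Among the rpn genes the low-level rpn-6.2 had the largest log2 fold change of all members. It had 28.4, 26.5, 23.7 and 23.6 CPM in bromhexine, 17.9, 24.7, 17.9 and 21.2 CPM in genipin, and 18.7, 19.5, 19.1 and 21.3 CPM in DMSO. The bromhexine libraries lay above those of DMSO, and the log2 fold change was 0.38 ± 0.11 (adjusted p = 0.0128, edgeR), a fold of 1.3. Its paralog rpn-6.1, for a lid subunit whose overexpression is known to raise proteasome activity in worms, had the smallest log2 fold change of all members. It had 189, 178, 175 and 162 CPM in bromhexine, 173, 170, 171 and 181 CPM in genipin, and 181, 174, 166 and 174 CPM in DMSO. These ranges overlapped, at 0.02 ± 0.05 against DMSO (adjusted p = 0.806, edgeR).

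The gene rpn-1 encodes a scaffold of the base that docks ubiquitin-like domains. Its levels were 463, 400, 423 and 376 CPM in bromhexine, 321, 406, 289 and 368 CPM in genipin, and 353, 330, 286 and 325 CPM in DMSO. Bromhexine libraries exceeded all DMSO libraries, at 0.36 ± 0.10 (adjusted p = 0.0106, edgeR), while the genipin libraries ran from near the lowest DMSO level into the bromhexine range.

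The ubiquitin receptors differed from each other in their calls. The receptor gene rpn-13 had 217, 212, 221 and 208 CPM in bromhexine, 186, 200, 182 and 198 CPM in genipin, and 196, 193, 186 and 195 CPM in DMSO, a log2 fold change against DMSO of 0.16 ± 0.05 (adjusted p = 0.0226, edgeR). The receptor gene rpn-10 had 170, 166, 176 and 155 CPM in bromhexine, 142, 156, 160 and 154 CPM in genipin, and 151, 169, 150 and 162 CPM in DMSO, at 0.08 ± 0.06 on the log2 scale (adjusted p = 0.311, edgeR). The bromhexine libraries of rpn-13 lay above all others, and those of rpn-10 overlapped with DMSO; whether the receptors' fold changes differ from each other was not tested. The call of rpn-13 was lost without bromhexine replicate 1 (adjusted p = 0.0526), bromhexine replicate 3 (0.0640) or DMSO replicate 3 (0.0700), with upper quartile scaling (0.0728) and without the filter (0.0705).

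Of the other rpn genes, rpn-12, for a lid subunit, rose by 0.25 ± 0.05 (adjusted p = 0.00244, edgeR), and the base scaffold gene rpn-2 (0.25) and the lid genes rpn-7 (0.21), rpn-5 (0.19) and rpn-3 (0.17) rose as well. The gene rpn-11, whose product removes ubiquitin chains from the substrate, was not called (0.14, adjusted p = 0.0731), nor were rpn-9 (0.07) and rpn-8 (0.04), the lid gene whose product pairs with that of rpn-11. Under the 12 fits that each left out 1 library, and under the other tools, filters and scalings apart from library totals, 12 members kept the call against DMSO: pas-1, pas-2, pas-4, pas-6, pas-7, pbs-2, pbs-4, pbs-6, rpt-1, rpn-1, rpn-6.2 and rpn-12. The other 10 called members (pbs-1, pbs-5, rpt-2, rpt-3, rpt-5, rpn-2, rpn-3, rpn-5, rpn-7 and rpn-13) all lost it without DMSO replicate 3, with adjusted p from 0.052 to 0.13 (edgeR), and each also lost it without bromhexine replicate 1, bromhexine replicate 3 or both. DMSO replicate 3 is the control library in which the members stood lowest.

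**Figure D3:**
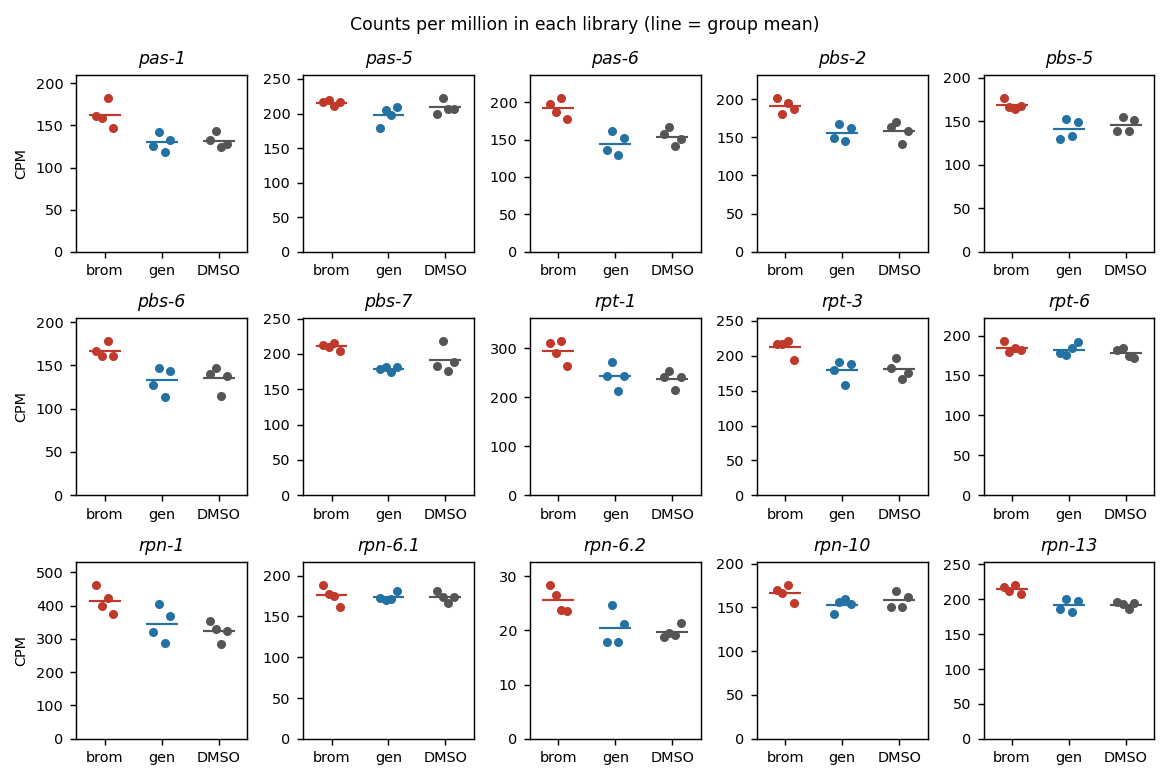
CPM in each library (vertical axis, from 0) for the 15 members given per library in the text, with bromhexine, genipin and DMSO from left to right, 1 point per library and a line at the group mean. In pas-6, pbs-2 and pbs-5 all bromhexine points lie above the other groups, while in pas-5, rpt-6 and rpn-6.1 the groups overlap.

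The comparison of genipin with DMSO uses the same 4 DMSO libraries as the comparison above. Of the 33 members 0 were called in either direction by edgeR, DESeq2 or limma voom, and 0 had an unadjusted p under 0.05 in edgeR. Of all genes tested 0.0292% were called higher and 0.0073% lower, so few calls were made in this comparison at all. The median log2 fold change of the members was -0.02, with a range of -0.09 to 0.10 and standard errors of 0.05 to 0.11. Core genes had a median of -0.04, and 14 of 14 were negative with TMM. Regulatory genes had a median of 0.00, with 10 positive and 9 negative.

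The members farthest from 0 in each subgroup were pas-6 (-0.09 ± 0.08), pbs-7 (-0.09 ± 0.06), rpt-1 (0.03 ± 0.08) level with rpt-6 (0.03 ± 0.05), and rpn-1 (0.10 ± 0.10), and in each of them the genipin and DMSO libraries overlapped. In every member the genipin and DMSO libraries overlapped, and all genes of the table gave 1.5% with genipin wholly above and 1.61% with genipin wholly below DMSO. Against DMSO the largest log2 fold changes with bromhexine were those of rpn-6.2, rpn-1 and pas-6, and with genipin these genes had 0.06 ± 0.11 (rpn-6.2), 0.10 ± 0.10 (rpn-1) and -0.09 ± 0.08 (pas-6). At this number of libraries a standard error of 0.05 to 0.11 leaves differences of that size undetectable.

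The comparison of bromhexine with genipin sets the compounds against each other, at doses of 100 µM and 200 µM that differ, and it shares its bromhexine libraries with the first comparison. Again 22 of 33 members were higher with bromhexine and 0 lower (edgeR, adjusted p under 0.05), beside 15% of all genes higher and 19.5% lower. The median log2 fold change was 0.23, with a range of 0.01 to 0.41, and in 20 members every bromhexine library lay above every genipin library, as in 11.2% of all genes, and in 0 members all lay below, as in 16.5% of all genes. In the core 12 of 14 genes were higher (median 0.28), and in the regulatory particle 10 of 19 (median 0.20). The beta ring had 7 of 7 higher, the alpha ring 5 of 7, the ATPases 3 of 6 and the other rpn genes 7 of 13.

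With library totals 8 members were called higher and 0 lower in this comparison, 3 were negative, and the median of the members was 0.13 where that of all genes was -0.10. The whole table then split into 940 higher and 3611 lower, with upper quartile scaling into 1476 and 3024, and with TMM into 2057 and 2671. The count of members called was 12 without genipin replicate 3, 13 without bromhexine replicate 3 and 14 without genipin replicate 1, the library that stood apart in cyp-35B2. Over the whole table the genes called higher then numbered 1301 without genipin replicate 3, 1368 without bromhexine replicate 3 and 1651 without genipin replicate 1, against 2057 with all libraries.

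The largest differences between the compounds were in pas-6 at 0.41 ± 0.08 (adjusted p = 0.000982, edgeR), pbs-6 at 0.33 ± 0.09 (adjusted p = 0.00915), pas-1 at 0.32 ± 0.08 (adjusted p = 0.00437) and rpn-6.2 at 0.32 ± 0.11 (adjusted p = 0.0339), among the 15 members given per library. The beta ring gene pbs-7 was called here at 0.23 ± 0.06 (adjusted p = 0.0103, edgeR), with all bromhexine libraries above all genipin libraries. The scaffold gene rpn-1, with its wide genipin range, was not called (0.26 ± 0.10, adjusted p = 0.0526), but it was without bromhexine replicate 4 (adjusted p = 0.0277), genipin replicate 2 (0.0115) or DMSO replicate 3 (0.0482). Again rpn-6.1 (0.01 ± 0.05) and rpt-6 (0.02 ± 0.05) had the smallest differences. The call of rpn-6.2 was lost without bromhexine replicate 1 or 2 or genipin replicate 1, 3 or 4, with adjusted p from 0.0531 to 0.105. The calls of rpt-1 (0.28), rpt-3 (0.25) and rpn-13 (0.16) were each lost without bromhexine replicate 3 or genipin replicate 3, that of rpt-1 also without bromhexine replicate 1, and that of rpn-13 also without bromhexine replicate 1 or genipin replicate 1, with adjusted p from 0.0505 to 0.0635 (edgeR). In all, 12 members kept the call against genipin under every fit that left out 1 library and under the other tools, filters and scalings apart from library totals: pas-1, pas-2, pas-4, pas-6, pas-7, pbs-2, pbs-4, pbs-5, pbs-6, pbs-7, rpn-5 and rpn-12.

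Set side by side by particle, the summed core level was 2630 ± 87 CPM in bromhexine, 2200 ± 150 CPM in genipin and 2260 ± 150 CPM in DMSO (SD, n = 4). The summed regulatory level was 4580 ± 240 CPM in bromhexine, 4020 ± 270 CPM in genipin and 4010 ± 200 CPM in DMSO. All 4 bromhexine sums lay above all others in the core, from 2528 to 2734 CPM beside 2051 to 2343 CPM in genipin and 2085 to 2446 CPM in DMSO. For the regulatory particle the bromhexine sums of 4278 to 4801 CPM overlapped with the genipin sums of 3718 to 4323 CPM and lay above the DMSO sums of 3748 to 4203 CPM. These sums rest on TMM scaling, whose factors were lowest in bromhexine. As a plain share of counts, all members together overlapped between bromhexine (0.638% to 0.709%) and DMSO (0.614% to 0.699%).

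The balance between the particles is changed by no scaling of libraries. It was taken as the mean core level over the mean regulatory level, both in CPM per kb, with the low-level rpn-6.2 included. This ratio was 1.40 ± 0.033 in bromhexine, 1.33 ± 0.016 in genipin and 1.36 ± 0.033 in DMSO. The bromhexine libraries ran from 1.36 to 1.44 and overlapped with DMSO, which ran from 1.34 to 1.41. They lay above genipin, which ran from 1.31 to 1.35. By the log2 ratio of summed core CPM over summed regulatory CPM, the bromhexine libraries overlapped with genipin too. That log2 ratio ran from -0.86 to -0.76 in bromhexine, -0.9 to -0.85 in genipin and -0.86 to -0.78 in DMSO. No p is given for a score over the members.

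The medians of both particles moved together from library to library, though not every member followed them. Among the genipin libraries rpn-8 stayed at 201 to 205 CPM, and rpn-10 was highest in replicate 3, at 160 CPM. Relative to the DMSO mean, the median log2 level of the core was 0.26, 0.23, 0.28 and 0.19 in the bromhexine replicates 1 to 4, -0.09, 0.07, -0.14 and 0.03 in genipin, and 0.04, 0.12, -0.12 and -0.02 in DMSO. For the regulatory particle it was 0.25, 0.18, 0.25 and 0.10 in bromhexine, -0.04, 0.08, -0.13 and 0.04 in genipin, and 0.03, 0.07, -0.07 and 0.00 in DMSO. Bromhexine replicate 4 was the lowest of its group in both particles, and replicate 3 was the lowest of both genipin and DMSO. In genipin replicates 1 and 3 only 1 and 2 of the 33 members exceeded the DMSO mean, in genipin replicates 2 and 4 it was 24 and 26, and in DMSO replicate 3 it was 0.

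Markers of germline and oocytes, a tissue that fills much of an adult hermaphrodite, differed between the libraries as well. Of the 18 marker genes 15 were higher and 0 lower with bromhexine than with DMSO (edgeR, median log2 fold change 0.32), beside 19% and 21.8% of all genes. With library totals 6 of the 18 were higher and 0 lower, beside 1142 higher and 4293 lower of all 13695 genes. With genipin 0 of the 18 markers were called against DMSO, beside 0.0292% of all genes higher and 0.0073% lower. Their median log2 level relative to the DMSO mean was 0.46, 0.34, 0.38 and 0.10 in the bromhexine replicates 1 to 4, 0.00, 0.22, -0.17 and 0.09 in genipin, and -0.04, 0.12, -0.14 and 0.02 in DMSO. Bromhexine replicate 4, genipin replicate 3 and DMSO replicate 3 were again the lowest of their groups. Their summed level was 8950 to 11400 CPM in bromhexine, 7360 to 9780 CPM in genipin and 7760 to 9270 CPM in DMSO, and none of the 18 was at 0. Their part in the difference of the proteasome genes was not tested.

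**Figure D4:**
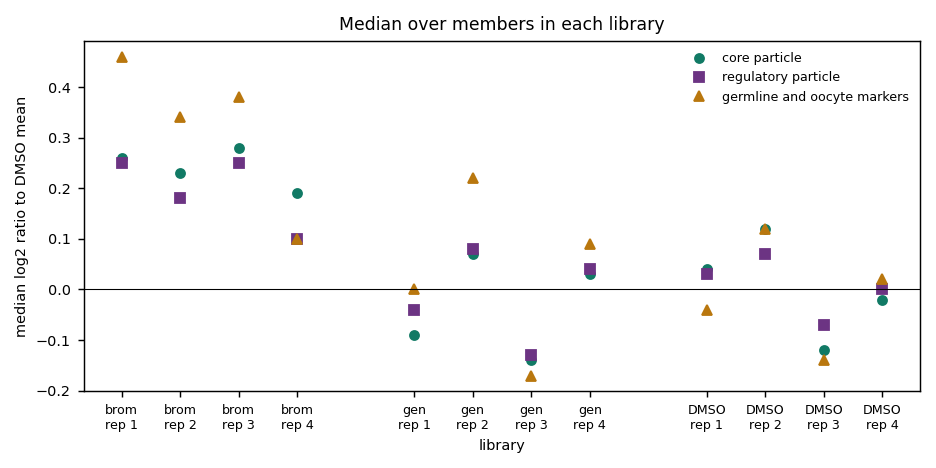
Median log2 level relative to the DMSO mean in each of the 12 libraries, for the 14 core genes, the 19 regulatory genes and the 18 germline and oocyte markers. Bromhexine replicate 4 is the lowest bromhexine library in all 3 sets of genes, and genipin replicate 3 and DMSO replicate 3 are the lowest of their groups.

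Markers of other tissues were counted in the same way, beside 19% of all genes higher and 21.8% lower. Body wall muscle markers had 8 of 10 genes higher and 0 lower against DMSO (edgeR, median log2 fold change 0.60), with summed levels of 2160 to 2770 CPM in bromhexine, 1760 to 2530 CPM in genipin and 1430 to 2170 CPM in DMSO. Intestinal markers had 4 of 9 higher and 1 lower (median 0.12, and -0.01 with library totals), and their summed level was 3380 to 3760 CPM in bromhexine, 1930 to 2200 CPM in genipin and 1810 to 2080 CPM in DMSO. Most of that sum is 1 gene, the protease gene asp-1, with a mean of 2910 CPM in bromhexine, 1490 CPM in genipin and 1390 CPM in DMSO. Hypodermal markers had 1 of 9 higher and 6 lower (median -0.73), with 478 to 750 CPM in bromhexine, 612 to 805 CPM in genipin and 616 to 713 CPM in DMSO. Neuronal markers had 2 of 10 higher and 2 lower (median 0.17), which is near the share over all genes. Sperm markers had 2 of 8 tested higher, also near that share, and 0 lower, with 22.2 to 33.4 CPM in bromhexine, 16.4 to 22.2 CPM in genipin and 16.2 to 21.3 CPM in DMSO. Of the 10 sperm markers, msp-19, msp-49, spe-11, ssp-16, gsp-3 and gsp-4 were at 0 in at least 1 library. The part of these lists in the result was not tested either.

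Across the 33 members the log2 fold change of bromhexine against DMSO went with how much a member varied among the genipin libraries. Those libraries are not part of that contrast, but they share its fit, and so its TMM scaling and its estimate of spread. The correlation with the SD of log2 CPM within genipin was r = 0.72 and rho = 0.68 (n = 33 genes), with r = 0.47 over the 14 core genes and r = 0.86 over the 19 regulatory genes, and r = 0.68 without rpn-6.2. These points share the same libraries, so they are no independent replicates and no p is given. The SD of log2 CPM within genipin had a median of 0.116 (0.045 to 0.223) in the 22 members called against DMSO and 0.074 (0.011 to 0.149) in the 11 that were not. The genipin libraries enter those calls through the shared fit, so the calls and this SD are not independent. The SD was highest in rpn-6.2 (0.223) and rpn-1 (0.216) and lowest in rpn-8 (0.011) and pbs-7 (0.024). Some members departed from the relation: pbs-4 had a small SD (0.045) with a log2 fold change of 0.27, and rpt-4 had an SD of 0.149 and was not called. With the same fold change, the SD of log2 CPM within DMSO, whose libraries the comparison uses, had r = 0.45, and exon length had r = 0.14. The log2 level per kb in genipin had r = -0.37 (rho = -0.21) over all members, but r = -0.19 (rho = -0.14) without the low-level rpn-6.2. It had r = -0.70 (rho = -0.62) over the core genes and r = -0.46 (rho = -0.24) over the regulatory genes, rpn-6.2 included.

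**Figure D5:**
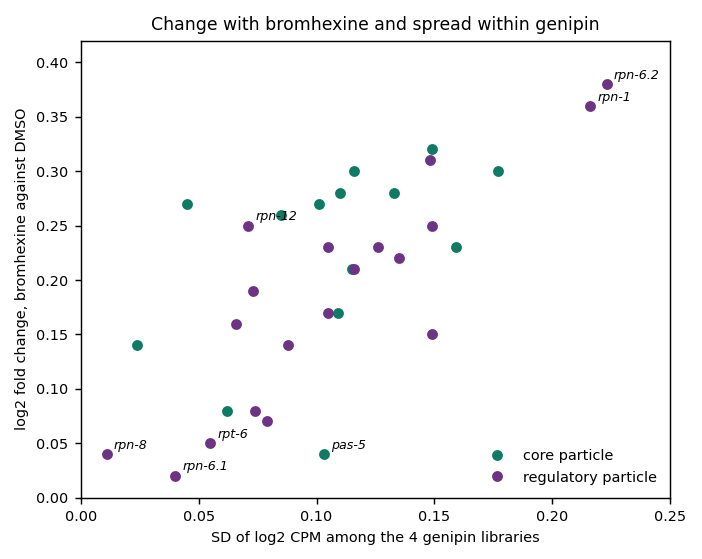
Log2 fold change of bromhexine against DMSO for each member against the SD of its log2 CPM among the 4 genipin libraries, with core and regulatory genes marked apart. Members that varied more among genipin libraries tended to have larger fold changes with bromhexine (r = 0.72, n = 33 genes), with rpn-8 and pbs-7 lowest and rpn-1 and rpn-6.2 highest by SD.

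Transcripts of the pathway that raises proteasome genes did not move one way with bromhexine. Of 6 genes of SKN-1A activation 2 rose and 2 fell against DMSO (edgeR, median log2 fold change 0.10), beside 19% and 21.8% of all genes. With library totals 0 rose and 2 fell (median -0.03), beside 1142 higher and 4293 lower of all 13695 genes. The protease gene ddi-1, whose product cuts SKN-1A, had 147, 133, 141 and 136 CPM in bromhexine, 149, 139, 155 and 148 CPM in genipin, and 152, 158, 159 and 161 CPM in DMSO. Every bromhexine library lay below every DMSO library, at -0.17 ± 0.05 on the log2 scale (adjusted p = 0.0147, edgeR). The gene sel-11, for the ubiquitin ligase of the endoplasmic reticulum that acts in the release of SKN-1A, rose by 0.21 ± 0.07 (adjusted p = 0.0178), a call lost with library totals (0.08, adjusted p = 0.329). The other calls, named after their values were seen, were sel-9 (-0.27) and png-1, the peptide N-glycanase gene (0.18). The gene skn-1 itself was not called (0.10 ± 0.06, adjusted p = 0.215). The part of this pathway in the difference of the proteasome genes was not tested.

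Of 5 genes for factors that bind the proteasome and lie outside the naming rule, 1 rose and 1 fell with TMM. These shares were near the 19% and 21.8% of all genes. With library totals 0 rose and 4 fell, beside 1142 higher and 4293 lower of all 13695 genes. The deubiquitinase gene ubh-4, whose product binds the regulatory particle, had 106, 102, 106 and 115 CPM in bromhexine, 129, 122, 153 and 136 CPM in genipin, and 142, 145, 149 and 136 CPM in DMSO. It fell by 0.41 on the log2 scale with bromhexine against DMSO (SE 0.07, adjusted p = 0.000269, edgeR), with all bromhexine libraries below all others, and by 0.55 with library totals. The deubiquitinase gene usp-14 rose by 0.16 ± 0.06 (adjusted p = 0.0451), a call lost with upper quartile scaling (adjusted p = 0.117) and with library totals (adjusted p = 0.724).

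Of 12 tested genes of the segregase p97, which pulls ubiquitin-tagged proteins out of complexes, and its cofactors, 4 rose and 0 fell with TMM. Of all genes 19% rose and 21.8% fell. With library totals 0 of the 12 were called, beside 1142 higher and 4293 lower of all 13695 genes. Those that rose with TMM were ufd-3 (0.32 ± 0.09, adjusted p = 0.0112, edgeR), cdc-48.2 (0.28 ± 0.08, adjusted p = 0.0141) and, named after their values were seen, cdc-48.1 (0.34) and ubxn-6 (0.24). The gene uba-1, for the enzyme that activates ubiquitin, was the 1 of 3 ubiquitin and activating enzyme genes to rise, beside 19% of all genes. Its log2 fold change was 0.31 ± 0.10 (adjusted p = 0.0256, edgeR), and it was not called with library totals (adjusted p = 0.134).

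Of 19 tested ubiquitin-conjugating enzyme genes 2 rose and 4 fell (median 0.02), beside 19% and 21.8% of all genes. With library totals 1 rose and 6 fell (median -0.12), beside 1142 higher and 4293 lower of all 13695 genes. With either scaling the share that fell was near that over all genes. The called genes with the smallest p were ubc-19, at -0.92 ± 0.19 (adjusted p = 0.00171, edgeR), and ubc-3, at -0.28 ± 0.06 (adjusted p = 0.00257). The others, named after their values were seen, were ubc-15 (0.40), ubc-13 (0.23), ubc-16 (-0.20) and ubc-22 (-1.20). Among 8 cullin and RING genes 0 rose and 1 fell with TMM, beside 19% and 21.8% of all genes. With library totals 0 of these 8 rose and 3 fell, beside 1142 higher and 4293 lower of all 13695 genes. The 1 that fell with TMM was cul-6, known from the response to intracellular pathogens. It had 5.13, 4.09, 4.23 and 3.63 CPM in bromhexine, 5.93, 7.79, 12.3 and 9.98 CPM in genipin, and 9.24, 9.14, 9.62 and 9.65 CPM in DMSO (log2 fold change -1.15 ± 0.19, adjusted p = 0.000307, edgeR). Of 6 genes of the COP9 signalosome, a complex built like the lid, 3 rose and 0 fell with TMM, beside 19% and 21.8% of all genes. Those that rose were csn-4 (0.26 ± 0.06, adjusted p = 0.00389, edgeR), csn-6 (0.18 ± 0.05, adjusted p = 0.0179) and, named after its value was seen, csn-1 (0.16). With upper quartile scaling 1 of the 6 rose and 2 fell, beside 2034 and 3371 of all genes. With library totals 0 rose and 2 fell, beside 1142 and 4293 of all genes.

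With genipin 0 members of these 7 related lists were called against DMSO, beside 0.0292% of all genes higher and 0.0073% lower. Against genipin, 15% of all genes were higher with bromhexine and 19.5% lower. The genes called higher and lower there were 1 and 0 of 6 in SKN-1A activation, 0 and 1 of 5 in the proteasome-associated factors, and 2 and 0 of 12 in p97 and its cofactors. They were 5 and 2 of 19 in the conjugating enzymes, 0 and 1 of 8 in the cullins and RING genes, and 2 and 0 of 6 in the COP9 signalosome. The shares higher in SKN-1A activation and in p97 and its cofactors, 16.7% each, were near that over all genes. For ubiquitin and its activating enzyme 0 of 3 were called.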

How the data were processed

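RNA of 12 whole-worm libraries was read as pairs of 150 nt. Per the submitters' processing notes, reads were checked with FastQC, STAR 2.7.11b and RSEM 1.3.3 were used, and the build was WBcel235. The authors deposited expected counts per gene, in which reads that match several genes are divided, so 2.06% of the values carry decimals. Names, positions and merged exon lengths came from the WBcel235 annotation of Ensembl release 115, in which all 46926 genes were found.

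The values, rounded to whole numbers, were tested in R 4.3.3 with edgeR 4.0.16: filterByExpr (13695 genes kept), TMM scaling, 1 quasi-likelihood fit of the 12 libraries with group as the only term, and Benjamini-Hochberg adjustment over all genes of a contrast. The threshold was an adjusted p of 0.05. The standard error of a log2 fold change was its size divided by the square root of F. Libraries of a group varied by 12.1% (biological coefficient of variation). Library totals of 20.3 to 28.1 M set the counting precision.

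Alternatives were DESeq2 1.42.0, limma 3.58.1 voom, other scalings and filters, a replicate block, fits of 8 libraries, a stricter threshold and each library left out. Library totals as the scaling was added after the data were seen. Members, lists and tests were chosen with earlier results of these data known. Values per library are given, by rule, for the members with the 2 highest and the 1 lowest log2 fold change of bromhexine against DMSO in each subgroup, the member of each subgroup farthest from 0 with genipin, and rpn-6.1, rpn-6.2, rpn-10, rpn-13, pbs-5 and rpt-3. Of each related list up to 2 called genes by smallest p are named.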

Additional observations from a re-analysis of the deposited data

Results flagged for a closer look

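In 3 of the 99 sets of 4 libraries (33 members in 3 groups) 1 library lay far from the other 3 by Dixon's test of the gap over the whole range. Chance flags about 1 in 20 such sets. DMSO replicate 3 was the low library in pbs-1, at 203 CPM beside 224 to 227 CPM in the other DMSO libraries, and in rpt-4, at 183 CPM beside 199 to 201 CPM. Bromhexine replicate 4 was the low library in rpt-3, at 194 CPM beside 217 to 221 CPM in the other bromhexine libraries.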

How the results depend on the processing

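With library totals as the scaling, the members called higher were 1 (bromhexine against DMSO) and 8 (bromhexine against genipin), and the medians were 0.13 (core) and 0.06 (regulatory) against DMSO and 0.17 (core) and 0.10 (regulatory) against genipin. Of all genes 1142 were then higher against DMSO and 940 against genipin. This scaling lacks the TMM factors, which lie lowest in bromhexine. At an adjusted p under 0.01 the counts were 9 against DMSO and 11 against genipin, and all genes were not counted at that threshold. Leaving out 1 library gave 12 to 24 members higher against DMSO and 12 to 26 against genipin. Of all genes it gave 1856 to 2921 and 1301 to 2578. DESeq2 gave 25 and 26 members, limma voom 22 and 23, RLE 22 and 24, and upper quartile 18 and 17. No filter gave 18 and 19, 1 CPM in 4 libraries 22 and 22, and 8 libraries 21 and 16. Of all genes DESeq2 called 2938 and 2451 higher, limma voom 2636 and 2087, RLE 2785 and 2253, and upper quartile 2034 and 1476. Without the filter it was 2234 and 1748 of 20410, and with 1 CPM in 4 libraries 2516 and 1966 of 12048. Fits of 8 libraries gave 2524 and 1511, and the main fit gave 2602 and 2057 of 13695. Genipin against DMSO gave 0 members in each of these settings, and no setting called a member lower. Of 945 alternative values of the 15 members with values per library, 0 reversed a call, 19 against DMSO and 25 against genipin lost one, and 2 and 7 gained one. The correlation of same-numbered libraries' deviations was at most 0.00386 in pairs with bromhexine. Between genipin and DMSO it was 0.0155, 0.296, 0.247 and 0.18 for replicates 1 to 4, over 0.1 in 3 of 4 pairs, and replicate 1 did not correlate best with its own number. Between genipin and DMSO libraries of unlike number it was at most 0.132. Unlike numbers elsewhere reached similar values, 0.28 for bromhexine 1 with genipin 2 and 0.23 for bromhexine 4 with genipin 3. A pairing is therefore at most a hint from the data, and none was assumed. With the replicate number as a block 21 members were higher against DMSO, 22 against genipin, and 0 for genipin against DMSO. Of all genes 2551, 1971 and 3 were higher with that block. Changes under the standard errors of 0.05 to 0.11 are beyond what 4 libraries per group resolve.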
